A study of Homo sapiens with 12 samples.

Results

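Gene expression after PARK2 siRNA#2 (siRNA2 below) was compared with gene expression after PARK2 siRNA#1 (siRNA1) in SNB19, an established glioma cell line, across all genes on the array. The comparison took the 2 arrays titled for siRNA2 and the 2 titled for siRNA1, 4 of the 12 Affymetrix arrays of the study. Each array holds RNA of cells transfected with 1 siRNA and collected after 48 h. The other arrays are 2 of SNB19 cells given a scramble siRNA, and 6 of SF539, another established glioma line, given the same 3 siRNAs. All groups were transfected, and no untransfected sample is used here. Both siRNAs are labelled as directed at PARK2, so this contrast sets 1 reagent against another for the same named target. The level of PARK2 itself is not analysed here, so how far each siRNA lowered it is not known from these values.

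PARK2 encodes parkin, a ubiquitin ligase. Parkin is recruited to damaged mitochondria by the kinase PINK1, tags proteins of their outer membrane with ubiquitin and so marks them for mitophagy, the removal of mitochondria by autophagy. A siRNA is a short duplex whose guide strand directs the cell's RNA interference machinery to transcripts that match it. Gene groups measured here include the transcription programmes of low oxygen, of interferon and antigen presentation, and of the oxidant response. In low oxygen the factor HIF-1 is stabilised and turns on genes for glucose uptake, glycolysis, vessel growth and collagen modification. Interferons act through STAT and IRF factors on a large set of antiviral genes, and the class I presentation genes, which supply peptides to HLA molecules at the cell surface, are among their targets. NRF2 turns on reductases and transporters that deal with oxidants and reactive carbonyls.

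Values are on the log2 scale, and start at 2.01. Each gene is represented by its brightest probe set, which gave 8545 genes. The 4 arrays were close within each pair, with a correlation across probe sets of 0.998 for both siRNAs and a median SD between replicates of 0.0661 for siRNA1 and 0.0658 for siRNA2. The SF539 siRNA2 pair stood apart with a median SD of 0.126. The labels name duplicates without saying whether these were separate cultures, so the tests weigh a difference against the spread of these arrays, which may be technical, and the small number of arrays limits the precision. The lower quartile of the arrays was 3.93 to 4.02. A gene below about that level is near background, and no detection calls come with the values. Glial markers were well above that level in the SNB19 siRNA arrays: GFAP lay between 10.24 and 10.68, SOX2 between 9.09 and 9.14 and FABP7 between 11.65 and 12.13. AQP4, an astrocyte water channel, was at 3.22 to 3.37. The leukocyte marker PTPRC was at 2.76 to 3.08 and the epithelial marker EPCAM at 2.64 to 3.07, both near background.

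siRNA2 and siRNA1 differed at 518 of the 8545 genes, or 6.06%, at an adjusted p under 0.05 (limma, Benjamini-Hochberg). Such genes are named called here. With siRNA2, 263 genes were higher (3.08%) and 255 were lower (2.98%). The differences were moderate: the median size among called genes was 0.61, or 1.53-fold, and the smallest was 0.31. At least 2-fold differences were found at 90 called genes, 38 higher and 52 lower, and at least 4-fold differences at 7, of which 3 were higher and 4 lower. The median over all genes was 0.01. In RNA of a whole culture, a lower level per cell and fewer cells that make a transcript cannot be told apart. In every called gene the 2 arrays of one siRNA lay on one side of the 2 arrays of the other, but so they did in 4978 of all genes (58.3%; siRNA2 above in 30.6% and below in 27.6%), so separation alone says little. Of the called genes 228 had several probe sets, and these differed in sign at 36. At 27 called genes the mean of one siRNA lay below the lower quartile of the arrays. The count depended on the arrays in the fit: it was 134 without siRNA1 replicate 1, 176 without siRNA1 replicate 2, 154 without siRNA2 replicate 1 and 158 without siRNA2 replicate 2. It was 1082 without either array of the SF539 siRNA2 pair, whose replicates differ most. Of the 108 called genes named below, 45 kept an adjusted p under 0.05 without any 1 of the 12 arrays, and 44 lost it without each of the 4 arrays of the contrast.

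**Figure D1:**
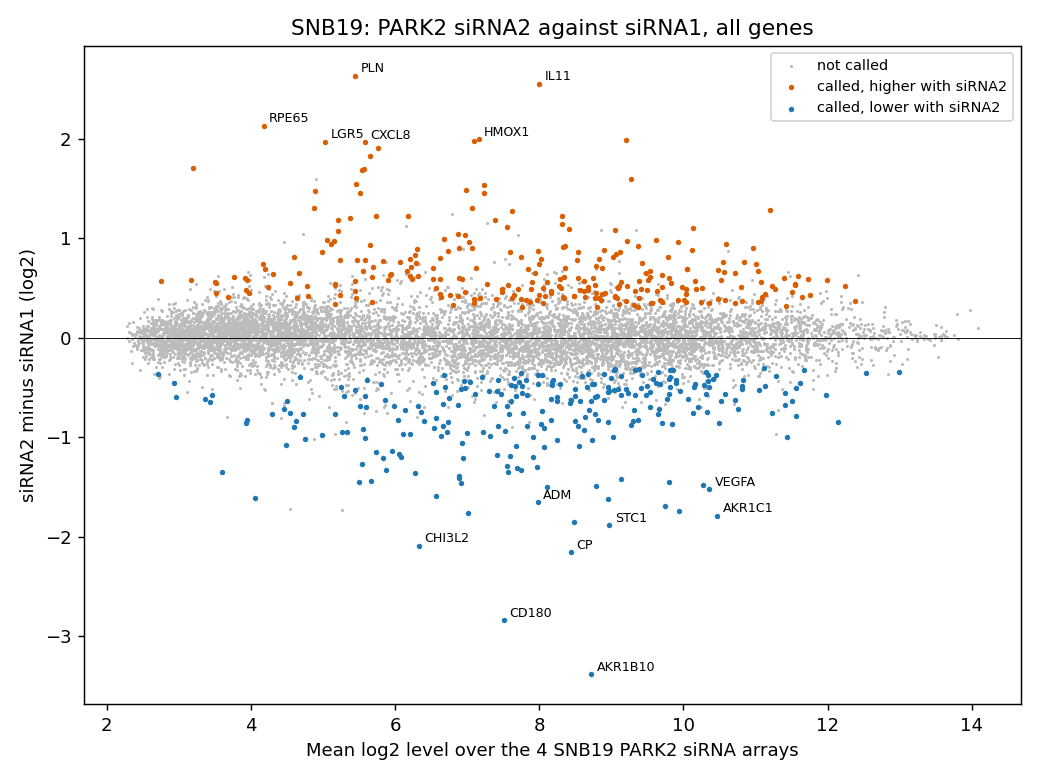
Difference between siRNA2 and siRNA1 in SNB19 (vertical axis, log2) against the mean log2 level over the 4 arrays (horizontal axis), 1 point per gene, with called genes in colour. The 263 higher and 255 lower genes lie at all levels, with PLN and IL11 at the top and AKR1B10 and CD180 at the bottom.

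Levels of the scramble arrays, which do not enter the contrast, are given beside the members. The siRNA1 arrays differed from scramble at 26.1% of genes and the siRNA2 arrays at 29.7%, so each siRNA stood apart from scramble at more genes than the siRNAs stood apart from each other. These comparisons share arrays, so their values are given side by side only.

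The group with the largest share of called members was the genes induced by low oxygen. With siRNA2, 14 of 24 measured members were lower (58.3%, against 2.98% of all genes) and 0 were higher, and at an unadjusted p under 0.05 these numbers were 17 and 0. The median over the list was -0.74, and the estimate was negative for all 24. The mean level of the list was 9.24 and 9.16 on the siRNA1 arrays and 8.38 and 8.35 on the siRNA2 arrays, beside 9.80 and 9.77 with scramble. The count stood at 8 without any 1 of the 4 arrays.

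To show what the promoters of genes in these groups hold, RefSeq windows of 250 bases before the gene start (GRCh38.p14) were searched on both strands for ACGTG, the core of the element HIF-1 binds. BNIP3 (chr10:131981924-131982173, minus strand) and PFKFB3 (chr10:6202682-6202931, plus strand) are printed because both were called lower with siRNA2 and hold a palindrome with ACGTG on each strand, in capitals:

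BNIP3: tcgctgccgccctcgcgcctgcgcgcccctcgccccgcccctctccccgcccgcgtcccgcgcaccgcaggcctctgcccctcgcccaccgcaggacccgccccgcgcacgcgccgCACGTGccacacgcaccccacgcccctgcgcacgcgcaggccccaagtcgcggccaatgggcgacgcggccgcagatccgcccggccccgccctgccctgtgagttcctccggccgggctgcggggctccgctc

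PFKFB3: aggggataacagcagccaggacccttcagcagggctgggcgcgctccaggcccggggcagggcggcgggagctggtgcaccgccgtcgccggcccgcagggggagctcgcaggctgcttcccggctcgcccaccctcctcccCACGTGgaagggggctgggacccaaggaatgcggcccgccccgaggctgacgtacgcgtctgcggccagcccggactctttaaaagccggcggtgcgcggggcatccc

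Of the 14 called hypoxia genes 9 matched a window, with 13 windows in all, and 8 of those 13, belonging to 6 genes, held ACGTG. Over all 35116 windows the share was 18.5%. A match is a description of the letters and not a bound site.

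Secreted factors were among the genes with the largest differences. STC1, stanniocalcin, a glycoprotein hormone, was at 9.95 and 9.88 with siRNA1 and at 7.97 and 8.09 with siRNA2. It was therefore lower by -1.89 ± 0.11 (SE, n = 2 per siRNA; adjusted p = 2.39e-05), or 3.70-fold, and both siRNAs lay below scramble at 10.78 and 10.86. ADM, the vasodilator peptide adrenomedullin, was at 8.93 and 8.69 with siRNA1 and at 7.22 and 7.09 with siRNA2 (-1.65 ± 0.10, adjusted p = 2.67e-05), beside 10.60 and 10.54 with scramble. VEGFA, the main growth factor for vessels, was at 11.07 and 11.17 against 9.44 and 9.76 (-1.52 ± 0.12, adjusted p = 0.000119), beside 11.76 and 11.79. All 3 genes gave the same order in SNB19, with scramble highest and siRNA2 lowest, with no overlap between groups. The 4 probe sets of VEGFA gave -1.52 to -0.78.

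NDRG1, DDIT4 and BNIP3 had this order too, and LOX did not. NDRG1, a stress-induced protein long used as a hypoxia marker, was at 10.91 and 10.70 with siRNA1 and 8.98 and 9.15 with siRNA2 (-1.74 ± 0.23, adjusted p = 0.00196). DDIT4, an inhibitor of mTORC1, was at 11.05 and 10.98 against 9.46 and 9.61 (-1.48 ± 0.17, adjusted p = 0.00103). BNIP3, a mitophagy receptor of the outer mitochondrial membrane, was at 11.92 and 11.94 against 10.90 and 10.98 (-0.99 ± 0.08, adjusted p = 0.000161). Scramble arrays lay above both siRNAs in each case, at 11.77 and 11.57 for NDRG1, 11.79 and 11.83 for DDIT4 and 12.32 and 12.34 for BNIP3. LOX, lysyl oxidase, which crosslinks collagen, differed in form: its siRNA1 values of 8.84 and 8.87 lay at the scramble values of 8.81 and 8.80, and its siRNA2 values were 7.32 and 7.39 (-1.49 ± 0.29, adjusted p = 0.0159). The collagen hydroxylases P4HA1, PLOD1 and PLOD2 and the demethylase KDM3A were also lower, by between -0.86 for P4HA1 and -0.68 for PLOD2, and JMJD6 by -0.32. Members that did not pass the test included RORA at -0.97 ± 0.34 (adjusted p = 0.143), PDK1 at -0.76 ± 0.21 (adjusted p = 0.0749) and BHLHE40 at -0.05.

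**Figure D2:**
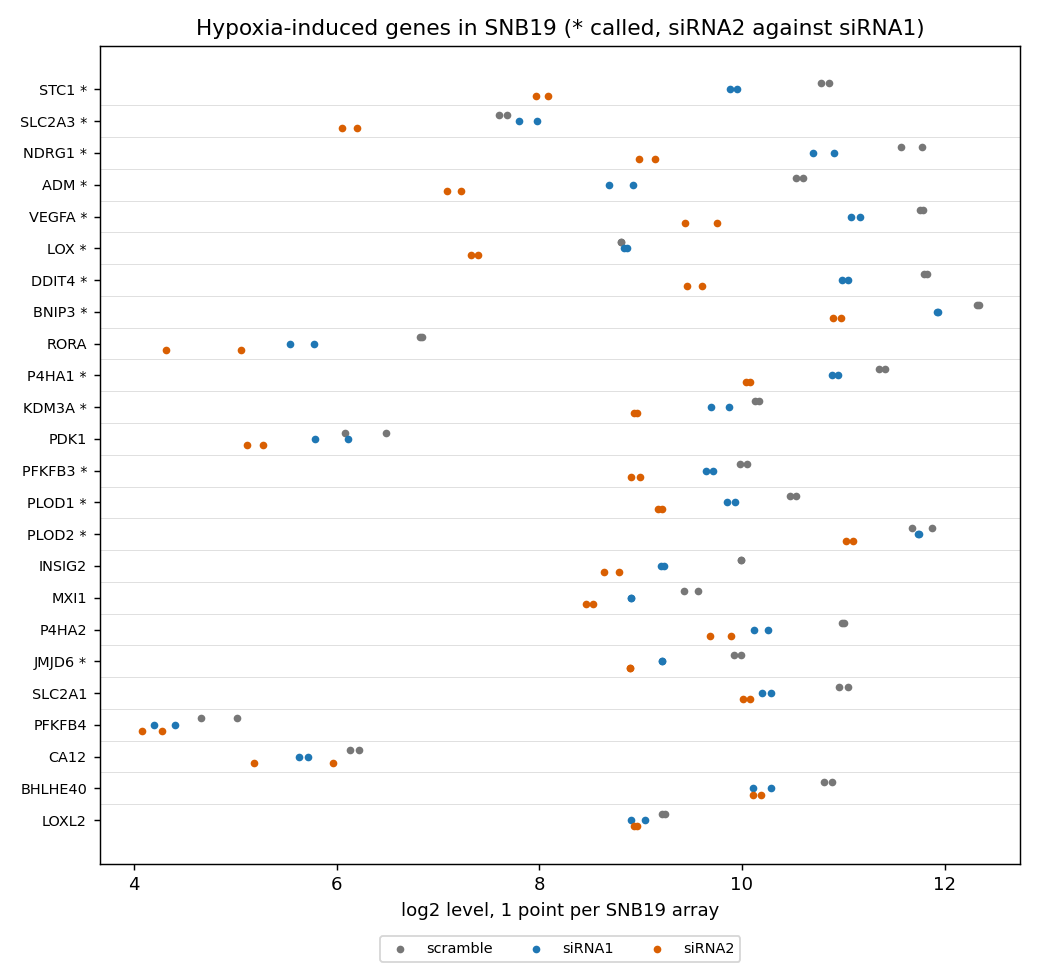
Log2 level of each of the 24 measured hypoxia-induced genes on the 6 SNB19 arrays, 1 point per array, with grey for scramble, blue for siRNA1 and orange for siRNA2; a star marks genes called between siRNA2 and siRNA1. Orange points lie to the left of blue ones in the starred genes, and for STC1, ADM and VEGFA the grey points lie to the right of both.

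Glycolysis genes, some of which are also on the hypoxia list, were mostly lower or not called. Of 24 measured, 6 were lower with siRNA2 (25%, against 2.98% of all genes) and 0 higher, and the median was -0.25. At an unadjusted p under 0.05 these numbers were 14 and 0. HK2, a hexokinase that carries out the first step of glycolysis, was at 9.78 and 9.91 with siRNA1 and 8.35 and 8.50 with siRNA2 (-1.42 ± 0.11, adjusted p = 0.000132), with scramble at 10.72 and 10.64. SLC2A3, the glucose transporter GLUT3, was at 7.98 and 7.80 with siRNA1 and 6.05 and 6.20 with siRNA2 (-1.76 ± 0.36, adjusted p = 0.0203), with scramble at 7.68 and 7.60. PFKP, a phosphofructokinase, was lower by -0.69, PFKFB3, which makes the activator of that enzyme, by -0.73, ENO2, a neuronal enolase, by -0.76 and PGK1, phosphoglycerate kinase, by -0.34. Of the members that were not called, PDK1, a kinase that restrains pyruvate dehydrogenase, gave -0.76 as above, GAPDH -0.19 and LDHA, which makes lactate, 0.17. AK4, a mitochondrial adenylate kinase outside both lists, was at 9.79 and 9.74 with siRNA1 and 8.08 and 8.21 with siRNA2 (-1.62 ± 0.20, adjusted p = 0.00147). SLC2A3 and LOX lost their calls without each of the 4 arrays (adjusted p up to 0.15 and 0.115), and ENO2 without those and 6 others, the exceptions being the SF539 siRNA2 pair (up to 0.282). The ENO2 call also ended with a replicate block, quantile normalization or median centring (up to 0.0588). STC1, ADM, VEGFA, NDRG1, DDIT4, BNIP3, HK2, PFKP, PFKFB3 and AK4 kept theirs without any 1 array.

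Class I antigen presentation moved in the opposite direction. With siRNA2, 7 of 15 measured members were higher (46.7%, against 3.08% of all genes), 0 were lower and the median was 0.37. At an unadjusted p under 0.05, 12 were higher and 1 was lower. Both siRNAs lay far below scramble: the list's mean was 11.32 and 11.29 with scramble, 8.98 and 9.0 with siRNA1 and 9.44 and 9.35 with siRNA2. PSMB9, a subunit of the immunoproteasome, was at 11.69 and 11.74 with scramble, at 5.15 and 5.10 with siRNA1 and at 6.55 and 6.15 with siRNA2, a difference between the siRNAs of 1.22 ± 0.15 (adjusted p = 0.00133). So siRNA2 arrays were higher than siRNA1 arrays, but nearer to them than to scramble. TAP2, a subunit of the transporter that brings peptides into the endoplasmic reticulum, was at 6.24 and 6.21 with siRNA1 and 7.16 and 6.90 with siRNA2 (0.80 ± 0.10, adjusted p = 0.00148), beside 9.90 and 9.81 with scramble. Its partner TAP1 differed by 0.46 ± 0.10 (adjusted p = 0.0335) and the immunoproteasome subunit PSMB8 by 0.72 ± 0.13 (adjusted p = 0.0114). HLA-B, HLA-C and TAPBP, the tapasin that loads HLA molecules, were higher by 0.36 to 0.37. B2M, the light chain of HLA class I, gave 0.17 and was not called (adjusted p = 0.263). HLA genes are close copies of each other, so probe sets may share signal between them.

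Interferon-stimulated genes showed 8 of 37 measured members higher with siRNA2 (21.6%, against 3.08% of all genes), 0 lower and a median of 0.23. Of these calls PSMB9, PSMB8 and TAP1 are also among the class I calls above, so the counts of these lists are not separate. At an unadjusted p under 0.05, 17 were higher and 4 lower. GBP1, an interferon-induced GTPase, was at 6.93 and 7.03 with siRNA1 and 8.23 and 8.28 with siRNA2 (1.28 ± 0.14, adjusted p = 0.000962), with scramble at 10.95 and 11.04. IFIT1, which binds viral RNA, was at 6.55 and 6.53 against 7.67 and 7.35 (0.97 ± 0.14, adjusted p = 0.0041), with scramble at 12.85 and 12.88. IFI27 was at 3.99 and 3.97 with siRNA1, which is at the lower quartile of the arrays, and at 4.75 and 4.49 with siRNA2 (0.64 ± 0.10, adjusted p = 0.00514), with scramble at 12.94 and 12.98. In all 3 genes the siRNAs were separated by far less than either was from scramble. Other called members were TRIM22 (0.48) and IFI44 (0.47), whose 2 probe sets differed in sign (-0.40 and 0.47). Some members gave negative values: OASL was at -0.59, IFITM2 at -0.50 and IFITM3 at -0.43, none of them called. TLR3, a sensor of double-stranded RNA, was the called member of the innate RNA sensing list, 1 of 20 (5%, near the 6.06% of all genes). It was at 3.71 and 3.87 against 4.80 and 4.27 (0.74 ± 0.17, adjusted p = 0.0331), with scramble at 8.23 and 8.18. Its siRNA1 values lie below the lower quartile, so background bounds this difference, and with the 4 siRNA arrays alone its adjusted p was 0.0648. CTSS, cathepsin S, a lysosomal protease of antigen processing, was at 5.66 and 5.47 with siRNA1 and 6.81 and 6.77 with siRNA2 (1.22 ± 0.15, adjusted p = 0.00158), with scramble at 8.37 and 8.36. Leaving out single arrays of the contrast reduced the class I count to 2 or 3 and the interferon count to 4 to 6. TAP1, PSMB8 and TLR3 lost their calls that way (adjusted p up to 0.235, 0.105 and 0.224), TLR3 not without siRNA2 replicate 2; TAP1 and TLR3 also lost theirs without a scramble array of SNB19 or a siRNA1 array of SF539, and TLR3 without a scramble array of SF539. GBP1, PSMB9, IFIT1, IFI27, TAP2 and CTSS kept theirs. The TAP2 call ended with the mean of its 3 probe sets, which ran from 0.04 to 0.80, and with a replicate block 4 class I members were called.

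TAP1 (chr6:32853705-32853954, minus strand) and GBP1 (chr1:89065209-89065458, minus strand) are printed as 2 of the called genes whose windows hold GAAA, any 2 bases and GAAA again (IFI27, IFI44, IFIT1, TAP2 and TAPBP do too), the core of the element that interferon-activated STAT complexes and IRF factors bind, in capitals and here on the reverse strand:

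TAP1: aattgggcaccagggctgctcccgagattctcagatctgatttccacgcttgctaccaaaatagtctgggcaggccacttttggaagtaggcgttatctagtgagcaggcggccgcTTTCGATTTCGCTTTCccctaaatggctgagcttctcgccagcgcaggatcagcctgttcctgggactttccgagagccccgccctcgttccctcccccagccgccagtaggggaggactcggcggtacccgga

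GBP1: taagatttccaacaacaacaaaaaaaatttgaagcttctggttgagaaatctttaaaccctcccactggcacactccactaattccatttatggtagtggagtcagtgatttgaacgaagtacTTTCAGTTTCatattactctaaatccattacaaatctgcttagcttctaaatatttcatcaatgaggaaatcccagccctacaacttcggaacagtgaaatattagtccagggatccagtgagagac

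TAP1 holds 2 overlapping matches and GBP1 holds 1. The motif was in 7 of 11 windows of the called interferon genes (5 of 7 genes with a window). It was in 3 of 9 windows of the called class I genes (3 of 7 genes). Over all windows the share was 3.02%. TAP1, PSMB8 and PSMB9 count in both lists, and of these only TAP1 holds the motif.

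Inflammatory cytokines gave 5 of 32 measured members higher with siRNA2 (15.6%, against 3.08% of all genes), 0 lower and a median of 0.16. At an unadjusted p under 0.05 the numbers were 6 and 0. IL11, a cytokine of the gp130 family, was the second largest increase of all called genes, with 6.72 and 6.72 with siRNA1 and 9.38 and 9.17 with siRNA2 (2.55 ± 0.36, adjusted p = 0.00335), or 5.88-fold. Scramble arrays were at 5.82 and 5.88, so siRNA2 lay above both other groups. LIF, of the same family, had this form too, with 6.23 and 6.19 for scramble, 6.43 and 6.59 for siRNA1 and 7.95 and 7.98 for siRNA2 (1.45 ± 0.32, adjusted p = 0.0309). CXCL8, a chemokine that attracts neutrophils, was at 4.69 and 4.52 with siRNA1 and at 6.48 and 6.65 with siRNA2 (1.96 ± 0.16, adjusted p = 0.000145). Here siRNA1 was the group apart, since scramble arrays were at 6.89 and 7.11. CXCL2, a related chemokine, was at 4.94 and 4.42 against 6.26 and 6.19 (1.54 ± 0.31, adjusted p = 0.0202), with scramble between them at 5.48 and 5.44. TNFAIP3, which restrains NF-kB signalling, was higher by 0.44 ± 0.10 (adjusted p = 0.0310). IL6 (0.15), NFKBIA (0.02) and CXCL1 (0.02) were not called. LIF and CXCL2 lost their calls without each of the 4 arrays (adjusted p up to 0.189 and 0.145), and LIF also without either SNB19 scramble or either SF539 siRNA1 array. IL11 and CXCL8 kept theirs. The 2 probe sets of CXCL8 gave 0.45 and 1.96.

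**Figure D3:**
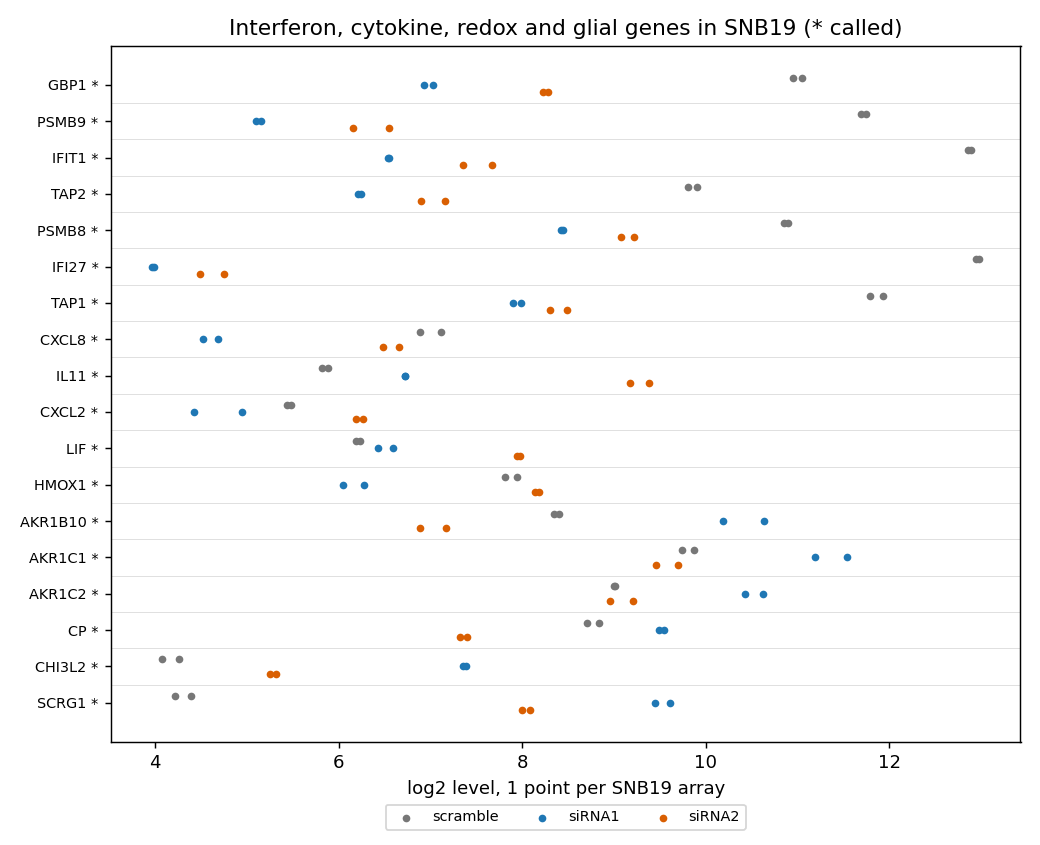
Log2 level of named interferon, cytokine, redox and glial genes on the 6 SNB19 arrays, 1 point per array, with grey for scramble, blue for siRNA1 and orange for siRNA2; a star marks genes called between siRNA2 and siRNA1. For PSMB9 and IFIT1 the blue and orange points lie close together and far left of grey, while for IL11 the orange points lie to the right of both others and for AKR1C1 the blue points do.

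NRF2 targets split into opposite directions, with 2 of 30 measured members higher with siRNA2, 8 lower and a median of 0.02. The share called was 33.3%, against 6.06% of all genes. The lower ones were led by aldo-keto reductases, which reduce reactive carbonyls and steroids. AKR1B10 showed the largest difference of all called genes, with 10.64 and 10.18 with siRNA1 and 7.17 and 6.89 with siRNA2 (-3.38 ± 0.21, adjusted p = 2.67e-05), or 10.4-fold. Scramble arrays lay between, at 8.34 and 8.40, so this gene was above scramble with one siRNA and below it with the other. AKR1C1 was at 11.54 and 11.19 with siRNA1 and 9.70 and 9.45 with siRNA2 (-1.79 ± 0.14, adjusted p = 0.000115), with scramble at 9.74 and 9.87. AKR1C2 was at 10.63 and 10.43 against 9.20 and 8.96 (-1.45 ± 0.12, adjusted p = 0.000161), with scramble at 9.0 and 9.01. For both AKR1C genes siRNA2 lay near scramble and siRNA1 above it. AKR1C genes are near-identical copies, and their probe sets may read each other's transcripts. AKR1C3 (-0.78), ALDH3A1 (-0.71), ABCC1 (-0.49), TXNRD1 (-0.38) and NQO1 (-0.35) were the other lower members.

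The 2 NRF2 targets that were higher were HMOX1 and SLC7A11. HMOX1, heme oxygenase, which breaks down heme, was at 6.28 and 6.05 with siRNA1 and 8.18 and 8.14 with siRNA2 (1.99 ± 0.23, adjusted p = 0.00115), or 3.99-fold, with scramble at 7.94 and 7.81. As for CXCL8, the siRNA1 arrays were the ones apart. SLC7A11, the cystine importer, was at 10.27 and 10.19 against 10.86 and 10.92 (0.66 ± 0.11, adjusted p = 0.00972). GCLC and GCLM, which make glutathione, gave 0.06 and 0.09 and were not called. In the list of iron and heme genes, 3 of 18 members were called (16.7%, against 6.06% of all genes): HMOX1, UROS, an enzyme of heme synthesis (0.50 ± 0.12, adjusted p = 0.0452), and CP. CP, ceruloplasmin, the copper-carrying ferroxidase, was at 9.55 and 9.49 with siRNA1 and 7.40 and 7.32 with siRNA2 (-2.16 ± 0.12, adjusted p = 1.95e-05), with scramble at 8.84 and 8.71. Metallothioneins and metal transporters gave 4 of 20 higher and 1 lower (25% called, against 6.06% of all genes). MT1E and MT1F, small metal-binding proteins of one gene cluster, were higher by 0.90 ± 0.12 and 0.88 ± 0.19, and the zinc transporters SLC30A9 and SLC39A14 by 0.65 and 0.57. Without single arrays of the contrast 1 NRF2 target was called higher and 3 or 4 lower; SLC7A11, MT1F and SLC39A14 lost their calls without each of these (adjusted p up to 0.0854, 0.183 and 0.147), SLC30A9 without 3 of them (up to 0.0965) and UROS without any array outside the SF539 siRNA2 pair (up to 0.236) and with a replicate block (0.0510). AKR1B10, AKR1C1, AKR1C2, HMOX1, CP and MT1E kept theirs.

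Among the largest increases with siRNA2, several belong to none of these groups. PLN, phospholamban, which restrains the calcium pump of the endoplasmic reticulum, was at 4.36 and 3.90 with siRNA1 and 6.80 and 6.74 with siRNA2 (2.63 ± 0.16, adjusted p = 2.39e-05), or 6.21-fold. Its 3 probe sets gave 1.60 to 2.63, and scramble was at 3.59 and 3.38. The lower siRNA1 value and both scramble values of PLN lay below the lower quartile of the arrays, so background may bound its difference. RPE65, the isomerase of the visual cycle, was at 3.18 and 3.05 against 5.30 and 5.18 (2.13 ± 0.10, adjusted p = 6.99e-06), so its siRNA1 and scramble values were at background and the difference is bounded by it. LPL, lipoprotein lipase, was at 6.07 and 6.13 against 8.21 and 7.95 (1.98 ± 0.16, adjusted p = 0.000121), with scramble between at 7.16 and 7.12. LGR5, a receptor for R-spondins that amplifies Wnt signals and is itself a Wnt target, was at 3.71 and 4.37 with siRNA1 and 5.96 and 6.07 with siRNA2 (1.97 ± 0.22, adjusted p = 0.00096), with scramble at 4.09 and 4.06. It was the 1 called member of 16 Wnt targets (6.25%, near the 6.06% of all genes). Its lower siRNA1 value, 3.71, lay below the lower quartile of the arrays. PLN, RPE65, LGR5 and HOPX, a small homeodomain protein (1.82 ± 0.12, adjusted p = 3.18e-05), were alike in that siRNA2 lay above the 2 other groups. RGS4, which switches off G proteins, was at 8.26 and 8.16 against 10.23 and 10.16 (1.98 ± 0.47, adjusted p = 0.0368), with scramble at 9.53 and 9.66. EVI2A (1.91), LRRN3 (1.69) and SH3BGR (1.69) had siRNA1 as the lowest group, with scramble for SH3BGR at 6.75 and 6.58, siRNA1 at 4.73 and 4.67 and siRNA2 at 6.38 and 6.39. LUM, the matrix proteoglycan lumican, gave 1.71 from values of 2.14 and 2.55 with siRNA1, below the lower quartile of the arrays. RGS4 lost its call without any array outside the SF539 siRNA2 pair (adjusted p up to 0.186) and with a trended prior (0.0526), and LUM without siRNA1 replicate 1 or siRNA2 replicate 1 (up to 0.0810). PLN, RPE65, LPL, LGR5, HOPX, EVI2A, LRRN3 and SH3BGR kept theirs.

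Of the largest decreases outside the groups, CD180, a Toll-like receptor homologue of immune cells, was at 9.01 and 8.83 with siRNA1 and 6.14 and 6.03 with siRNA2 (-2.84 ± 0.16, adjusted p = 1.95e-05), or 7.16-fold, with scramble between them at 7.03 and 7.09. CHI3L2, a chitinase-like secreted protein, was at 7.36 and 7.39 against 5.31 and 5.25 (-2.09 ± 0.09, adjusted p = 6.99e-06), and scramble was lowest at 4.07 and 4.25. TCN1, a carrier of vitamin B12, was at 9.48 and 9.33 against 7.52 and 7.59 (-1.85 ± 0.14, adjusted p = 9.52e-05), with scramble level with siRNA2 at 7.49 and 7.48. RASGRP1, an activator of Ras, had the same form, with 7.46 and 7.28 for siRNA1, 5.92 and 5.64 for siRNA2 and 5.55 and 5.83 for scramble (-1.59 ± 0.19, adjusted p = 0.00114). CD46, a membrane regulator that protects cells from complement, differed in form: scramble at 10.79 and 10.78 and siRNA1 at 10.58 and 10.61 were close, and siRNA2 was at 8.77 and 9.04 (-1.69 ± 0.26, adjusted p = 0.00593). The 3 probe sets of CD46 gave -1.69 to -0.47. AZGP1, a secreted zinc-binding glycoprotein, gave -1.61 ± 0.25 (adjusted p = 0.00604) from 4.42 and 5.31 against 3.13 and 3.37, the latter below the lower quartile. CD46 lost its call without replicate 1 of either siRNA (adjusted p up to 0.0633) and AZGP1 without siRNA2 replicate 1 (0.0645). CD180, CHI3L2, TCN1 and RASGRP1 kept theirs.

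Calls among genes of the mesenchymal and contractile programmes went in both directions. Called shares were 14.3% for matrix genes, 16% for actin genes, 15% for YAP/TAZ targets and 18.2% for TGF-beta genes, against 6.06% of all genes. TGFB2 counts among both YAP/TAZ targets and TGF-beta genes, and LOX among both matrix and hypoxia genes. List medians were small, at -0.02 for TGF-beta genes, 0.10 for actin genes and 0.14 for YAP/TAZ targets. Of 49 extracellular matrix genes 3 were higher and 4 lower, with a median of -0.06. TIMP3, an inhibitor of matrix metalloproteinases, was at 7.63 and 7.51 with siRNA1 and 6.06 and 6.31 with siRNA2 (-1.38 ± 0.20, adjusted p = 0.00344), and BGN, the proteoglycan biglycan, was lower by -0.77 ± 0.12 (adjusted p = 0.00583). Of 25 actin, smooth muscle and SRF genes 3 were higher and 1 lower. CNN1, calponin, was at 4.56 and 4.71 against 5.59 and 5.57 (0.95 ± 0.10, adjusted p = 0.000833), ACTA2, smooth muscle actin, was higher by 1.19 ± 0.22 (adjusted p = 0.0136), and ACTG2, another smooth muscle actin, by 0.61. ACTA2 has another probe set, at -0.04. MYLK, the kinase of myosin light chain, was lower by -0.55. Of 20 YAP/TAZ targets 3 were higher, ANKRD1 (8.54 and 8.41 against 10.18 and 9.97, 1.60 ± 0.35, adjusted p = 0.0275), the receptor tyrosine kinase AXL (0.55) and TGFB2 (0.53). TGF-beta genes gave 3 of 22 higher and 1 lower, with TGFB3, a ligand, at 6.39 and 6.53 against 7.48 and 7.5 (1.03 ± 0.15, adjusted p = 0.00438), TGFBI, a matrix protein induced by TGF-beta, higher by 0.65 ± 0.09 and LTBP1, which holds the latent ligand in the matrix, lower by -0.72. TAGLN, also of this programme and looked at after its values were seen, gave 1.59 ± 1.14 (adjusted p = 0.520): its 4 SNB19 values of 3.89, 4.33, 5.76 and 5.65 did not overlap, but the shared spread is wide.

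Integrins, laminins and cadherins gave 2 of 33 higher and 1 lower (9.09% called, against 6.06% of all genes), with a median of -0.001. ITGA4, an integrin chain, was at 8.01 and 7.97 against 7.09 and 7.02 (-0.93 ± 0.08, adjusted p = 0.00018), while the leukocyte integrin chain ITGB2 (0.48) and the cadherin CDH6 (0.47) were higher. Without each of the 4 arrays ACTA2, MYLK, ANKRD1, TGFB2, LTBP1, ITGB2 and CDH6 lost their calls (adjusted p up to 0.288), ACTG2 and AXL without 3 of them, BGN without replicate 2 of either siRNA (up to 0.0590) and TGFB3 without siRNA1 replicate 1 (0.0548). MYLK, ANKRD1, TGFB2, CDH6 and ACTG2 also lost theirs without a scramble array of SNB19. With the mean of probe sets ACTA2, AXL, LTBP1 and TGFB2 were not called, and with a replicate block neither were ACTG2, CDH6 and TGFB2 (adjusted p up to 0.122 over these, quantile normalization, a trended prior and the 4 siRNA arrays alone). TIMP3, CNN1, TGFBI and ITGA4 kept theirs without any 1 array.

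Genes of lipid and protein handling were called at differing shares, beside 6.06% of all genes. The shares were 20% for cholesterol and fatty acid synthesis and 15.8% for the unfolded protein response. They were 22.2% for ATF4 targets and 12.5% for heat shock genes. Cholesterol and fatty acid synthesis genes were higher at 5 of 25, lower at 0, with a median of 0.20, and 9 and 0 at an unadjusted p under 0.05. HMGCS1, which makes the precursor of mevalonate, was at 5.50 and 5.72 against 6.20 and 6.17 (0.58 ± 0.12, adjusted p = 0.0230), MSMO1, a sterol oxidase, was higher by 0.56, IDI1, an isoprenoid isomerase, by 0.37 and ACAT2, a thiolase, by 0.35. The scramble level of HMGCS1 was 5.59 and 5.69, next to siRNA1. All calls of this list ended without any 1 of the 4 arrays, with an adjusted p of up to 0.271 for ACAT2, and those of ACAT2 and IDI1 also without a SNB19 scramble or SF539 siRNA1 array. ACAT2 was also not called with a replicate block or with the 4 siRNA arrays alone (up to 0.0531). Of 19 genes of the unfolded protein response 3 were higher while 14 estimates were negative and the list's median was -0.18; at an unadjusted p under 0.05 the numbers were 3 higher and 6 lower. The called genes were SEL1L, of the degradation machinery of the endoplasmic reticulum (0.60), CANX, the chaperone calnexin (0.43), and DDIT3, the factor CHOP (0.35). ATF4 targets gave 4 of 27 higher and 2 lower. Of these calls DDIT3 counts also in the unfolded protein response, DDIT4 among hypoxia genes and SLC7A11 among NRF2 targets, so the shares are not separate. ATF3, a stress-induced factor, was at 5.91 and 5.82 against 6.55 and 6.85 (0.83 ± 0.15, adjusted p = 0.0113), and CEBPG, a partner of ATF4, was lower by -0.55 ± 0.09 (adjusted p = 0.00912). Of 35 lysosome genes 3 were higher, CTSS, the membrane protein LAMP1 (0.59) and the cholesterol transporter NPC1 (0.39). That share of 8.57% is near the 6.06% of all genes, and the list's median was -0.006. Of 16 heat shock genes 2 were higher, CRYAB, a small chaperone, at 10.36 and 10.56 against 11.17 and 11.27 (0.76 ± 0.11, adjusted p = 0.00327), and DNAJB4 (0.51). CANX, DDIT3, LAMP1, NPC1 and DNAJB4 lost their calls without each of the 4 arrays (adjusted p up to 0.229; DDIT3 and NPC1 also without a SNB19 scramble or SF539 siRNA1 array, and DDIT3 with a replicate block at 0.0529) and SEL1L, ATF3 and CEBPG without 3 of them (up to 0.103); CRYAB kept its call.

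Mitophagy genes were called at a share near that of all genes, 8% against 6.06%. Of 25 measured 1 was lower, BNIP3, and 1 higher, GABARAP, an autophagosome protein (10.99 and 10.95 against 11.46 and 11.52, 0.52 ± 0.09, adjusted p = 0.0122, lost without each of the 4 arrays at up to 0.0995). PINK1, the kinase upstream of parkin, was at 8.71 and 8.50 against 8.21 and 8.21 (-0.40 ± 0.14, adjusted p = 0.143). Of 45 genes of oxidative phosphorylation 0 were called by limma and 6 had an unadjusted p under 0.05, but all 45 estimates were positive, with a median of 0.15 beside 0.01 for all genes. The list's mean was 11.11 and 11.11 with siRNA1, 11.28 and 11.24 with siRNA2 and 11.11 and 11.10 with scramble. Estimates of the mitochondrial ribosome and import genes were positive at 18 of 19 (median 0.14) and those of the proteasome at 27 of 27 (median 0.13), also with 0 called and with 2 each at an unadjusted p under 0.05. These medians were 0.12, 0.14 and 0.10 after quantile normalization and 0.18, 0.16 and 0.16 after median centring, which moved the median of all genes to 0.04. In SF539 the same contrast gave medians of -0.15, -0.20 and -0.21 for the lists in that order, with 0 called, beside -0.03 for all genes.

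Cell cycle genes were rarely called in the main fit. Of 24 G1/S regulators, 24 mitosis genes and 11 p53 targets 0 were called by limma, with 4, 0 and 2 at an unadjusted p under 0.05, and of 35 DNA replication genes 1, RFC5, a clamp loader subunit (0.50 ± 0.11, adjusted p = 0.0335). With the 6 SNB19 arrays alone 3 G1/S regulators were called higher, beside 1122 of all genes called. With the 4 siRNA arrays alone these numbers were 1 and 906. CCND1, cyclin D1, was at 8.42 and 8.45 against 9.04 and 9.23 (0.70 ± 0.19, adjusted p = 0.0681), RBL1, a relative of the retinoblastoma protein, gave 0.30 ± 0.12 (adjusted p = 0.205) and CCNE2, cyclin E2, 0.30 ± 0.13 (adjusted p = 0.227). Of 19 apoptosis regulators 1 was called (5.26%, near the 6.06% of all genes), APAF1, the core of the apoptosome. It was lower with siRNA2 (7.07 and 7.25 against 6.26 and 6.35, -0.85 ± 0.11, adjusted p = 0.00228), though its 3 probe sets ran from -0.85 to -0.03 and their mean was not called. MAPK-induced genes gave 4 of 25 lower (16%, against 2.98% of all genes), 0 higher and a median of -0.15, with 5 and 3 at an unadjusted p under 0.05. They were JUNB, an AP-1 subunit (-0.54), SPRY1, an inhibitor of receptor signalling (5.81 and 5.80 against 4.72 and 5.00, -0.95 ± 0.18, adjusted p = 0.0152), the ephrin receptor EPHA4 (-0.83) and the immediate early gene IER2 (-0.38). The histone H2BC21 was higher by 0.99 ± 0.23 (1 of 20 histones), RRP1B by 0.51 (1 of 19 ribosome biogenesis genes), PRKRA, a partner of Dicer, by 0.44 (1 of 7 RNA interference genes) and OAT, an ornithine aminotransferase, by 0.46, while BCKDHA, of branched-chain amino acid breakdown, was lower by -0.59 (1 each way of 38 catabolic genes). Called shares of 5% for histones and 5.26% for ribosome biogenesis and for catabolic genes are near the 6.06% of all genes. The share for RNA interference genes, 14.3%, rests on 1 gene. RFC5, EPHA4, IER2, H2BC21, PRKRA, OAT and BCKDHA lost their calls without each of the 4 arrays (adjusted p up to 0.300), SPRY1 and RRP1B without 3 of them and JUNB without replicate 1 of either siRNA (up to 0.104). Of these RFC5, IER2, H2BC21 and BCKDHA also lost theirs without arrays of other groups, and APAF1 kept its call without any 1 array. With the mean of their probe sets RFC5 (adjusted p = 0.466) and RRP1B (0.163) were not called, nor were H2BC21, IER2 and BCKDHA with a replicate block (up to 0.0869 over that, quantile normalization and median centring).

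**Figure D4:**
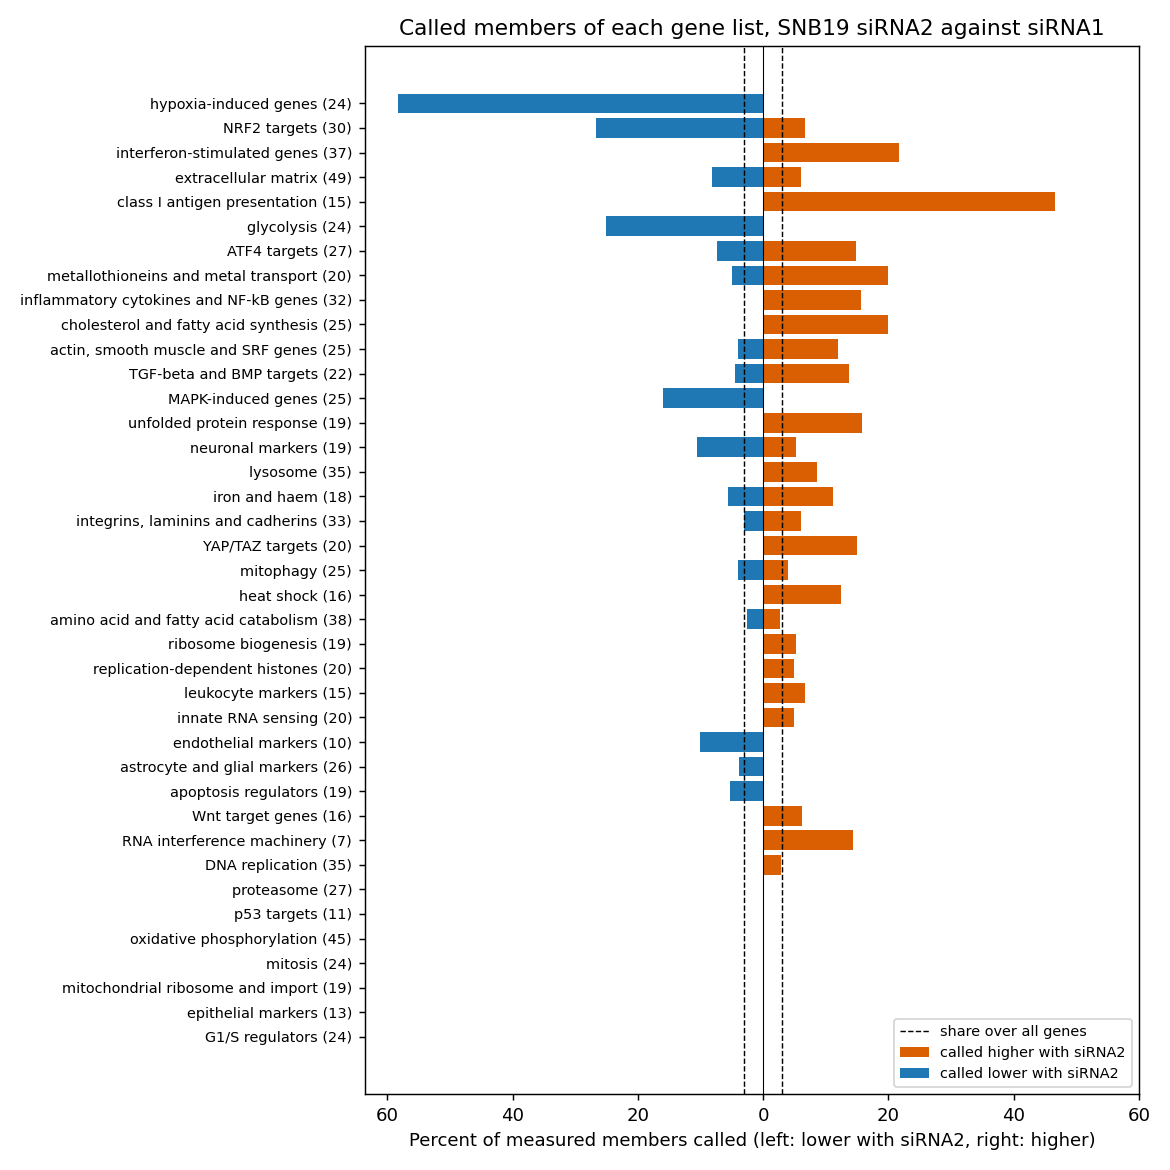
Percent of the measured members of each gene list (number in brackets) that were called, to the left where lower with siRNA2 and to the right where higher; dashed lines mark the shares over all genes, 2.98% and 3.08%. The bars for hypoxia-induced genes (58.3% lower) and class I antigen presentation (46.7% higher) reach farthest, and 7 lists at the foot have 0 called.

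Of the 5 lists of cell type markers the neuronal one had the highest share called, 3 of 19 (15.8%, against 6.06% of all genes). Of 26 astrocyte and glial markers 1 was called, SCRG1, which was at 9.44 and 9.61 with siRNA1 and 8.08 and 8.0 with siRNA2 (-1.48 ± 0.18, adjusted p = 0.00121), with scramble far lower at 4.39 and 4.22. CHI3L1, a glial marker with a wide spread in the model, gave -1.73 ± 1.10 (adjusted p = 0.457). Of 19 neuronal markers CHGB was lower (-0.95), ENO2 was lower as above and GAP43, a growth cone protein, was higher (0.40, with another probe set at -0.03). Of 15 leukocyte markers LCP1, an actin-bundling protein that tumour lines also make, was higher (5.43 and 5.24 against 6.01 and 6.09, 0.72 ± 0.11, adjusted p = 0.00583), and of 10 endothelial markers KDR, a VEGF receptor, was lower (6.12 and 6.04 against 5.26 and 4.89, -1.01 ± 0.16, adjusted p = 0.00593). Of 13 epithelial markers 0 were called by limma and 1 was higher and 3 lower at an unadjusted p under 0.05. The mean over the leukocyte markers was 4.27 to 4.39 on the 4 arrays and over the endothelial ones 4.13 to 4.24. GAP43 and CHGB lost their calls without single arrays (adjusted p up to 0.231 and 0.202), as did LCP1 without replicate 2 of either siRNA (up to 0.0610) and KDR without siRNA1 replicate 1 or siRNA2 replicate 2 (up to 0.0649), while SCRG1 kept its call. GAP43 was also not called with a replicate block, the mean of probe sets or a trended prior (up to 0.156), nor CHGB with the SNB19 arrays alone (up to 0.0711).

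Some called genes are neighbours in the genome order of the measured genes, between which unmeasured genes can lie. Over all genes 3.08% were called higher and 2.98% lower, and whether the runs exceed what these shares would give was not tested. Among the 8516 genes placed in the RefSeq order, 25 runs of at least 2 adjacent measured genes were called in the same direction, holding 55 calls. The 4 longest runs were TAP2, PSMB8, TAP1 and PSMB9 on chromosome 6 (higher), AKR1C1, AKR1C2 and AKR1C3 on chromosome 10 (lower), CALCRL, TFPI and GULP1 on chromosome 2 (higher) and HOXB5, HOXB6 and HOXB7 on chromosome 17 (higher).

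The same siRNAs were also compared in SF539, on 4 arrays that the SNB19 contrast does not use, although the spread is estimated over all arrays. There 232 genes were called (2.72%), 157 higher with siRNA2 (1.84%) and 75 lower (0.878%). That result depended on the arrays: with the 6 SF539 arrays alone 0 genes were called, though 1194 had an unadjusted p under 0.05, and the count ran from 3 without SF539 siRNA1 replicate 1 to 2303 without SF539 siRNA2 replicate 1. Of the SNB19 calls 41 were called in SF539, which is 7.92% of the SNB19 and 17.7% of the SF539 calls. Of these 17 were higher in both lines, 6 lower in both and 18 opposite. Across all genes the differences of the lines had a correlation of 0.01, as a description over genes that are not independent.

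Genes that differed in the same direction in both lines included TMEM158, a membrane protein induced by Ras, at -1.18 ± 0.11 in SNB19 (8.27 and 8.11 against 6.96 and 7.06) and -1.37 in SF539. AKR1C1 (-1.79 and -0.86) and AKR1C2 (-1.45 and -0.81) were lower in both, as were PODXL, a sialomucin of the cell surface (-0.64 and -1.23), and FSCN1, the actin bundler fascin (-0.60 and -0.67). LUM (1.71 and 1.90), OLFML2A (1.23 and 1.32), GBP1 (1.28 and 0.86), ANGPT1, a ligand of the vessel receptor TIE2 (0.82 and 1.18), and SDC2, a cell-surface proteoglycan (0.75 and 1.46), were higher in both. The siRNA1 values of LUM in SNB19 lay below the lower quartile of the arrays, so background bounds its difference there. In opposite directions went TIMP3 (-1.38 in SNB19 and 1.63 in SF539), DAPK1, a kinase of cell death (-1.29 and 1.56), CEBPD, a factor of the inflammatory response (-1.03 and 1.02), TRIL (-0.96 and 1.12) and DOK5 (-0.88 and 1.02). OLFML2A, PODXL, ANGPT1, SDC2, FSCN1, TRIL and DOK5 lost their SNB19 calls without each of its 4 siRNA arrays (adjusted p up to 0.295), SDC2, FSCN1, TRIL and DOK5 also without a SNB19 scramble array, and DAPK1 without siRNA1 replicate 1 or siRNA2 replicate 2 (up to 0.0674). With the mean of probe sets FSCN1 (0.126) and SDC2 (up to 0.0647) were not called, and SDC2 and TRIL were not with a replicate block. TMEM158, TIMP3 and CEBPD kept theirs without any 1 array.

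The difference between the lines was tested itself, as an interaction term. It was called at 285 genes (3.34%), 106 higher (1.24%) and 179 lower (2.09%) in SNB19 than in SF539. Of the 518 SNB19 calls 187 (36.1%) were among them, in part by construction, since the SNB19 difference enters this term. The count ran from 77 without SNB19 siRNA2 replicate 1 to 2203 without SF539 siRNA2 replicate 1. Of the 24 hypoxia genes 12 were called lower for this difference: the list's median was -0.74 in SNB19 and 0.39 in SF539, where 3 were called higher, BNIP3 (0.45), DDIT4 (0.83) and PLOD2 (0.55). Of 15 class I genes 3 were called, PSMB9, PSMB8 and TAP2, with SF539 values of -0.21, -0.18 and -0.28. PLN (SF539 -0.12), IL11 (-0.14), CXCL8 (-0.34) and CXCL2 (-0.75) differed between the lines, as did AKR1B10 (-0.13) and CD180 (0.14). MMP1, an interstitial collagenase, was lower in SF539 (-2.73) and gave -0.11 in SNB19 (adjusted p = 0.810), where it lay at 2.61 to 2.94 and near background. CEMIP, a hyaluronan-degrading protein, was at -1.72 ± 0.71 in SNB19 (adjusted p = 0.225) and 2.85 in SF539 (adjusted p = 0.0636), with only their difference called (adjusted p = 0.0424).

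**Figure D5:**
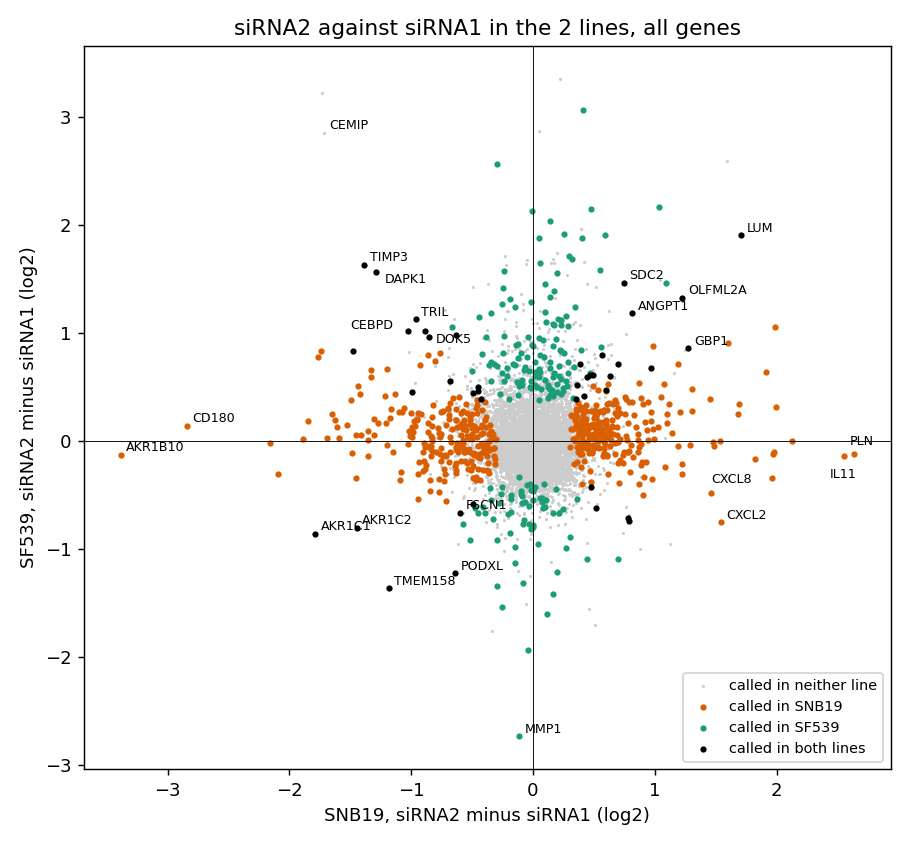
Difference between siRNA2 and siRNA1 in SF539 (vertical axis, log2) against that in SNB19 (horizontal axis, log2), 1 point per gene, coloured by the line in which it was called. Most SNB19 calls lie near 0 on the vertical axis, and the 41 genes called in both lines (black) lie in all 4 quadrants.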

How the data were processed

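RNA of 12 samples was measured on Affymetrix arrays. Values were used as deposited by the authors, in log2 units. The software Partek appears in the submitters' processing notes. How background, normalization and probe set summary were handled, and the build, is not stated in what was used here.

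The table held 16376 probe sets, of which 14038 named 1 gene, 792 several and 1546 none. Symbols of 14028 were updated through Entrez identifiers against RefSeq (GRCh38.p14). Each of the 8545 genes, 3361 of them with several probe sets, took its brightest probe set. One model of all 6 groups used every array (limma 3.58.1, lmFit and eBayes, R 4.3.3; 6 residual and 3.65 prior degrees of freedom), which shares 1 estimate of spread, and p-values, all two-sided, were adjusted by Benjamini and Hochberg's method with a threshold of 0.05. Errors are standard errors of that fit. The test was also run on simulated data with independent noise for each gene and array. Such data cannot show whether the duplicates are technical.

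Named genes are the 15 largest called changes each way without overlap between arrays, up to 4 called members of each list by smallest p, 3 of the G1/S and mitophagy lists even if not called, the 5 largest each way called in both lines, up to 5 called in opposite directions, and the 5 largest each way for the difference between lines. Other list members, marker genes, runs of neighbouring genes, TAGLN and CHI3L1 were chosen after their values were seen. Members and all 39 lists were chosen with earlier results of these data known, and the lists are described by counts and medians only.

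As alternatives, the replicate number was a block, only arrays of 1 line or of the siRNAs were used, values were quantile normalized or median centred, the dimmest 40% of genes were dropped, probe sets were averaged or tested singly, a trended robust prior, array weights or a minimum fold of 1.5 was used, and single arrays were left out. In the last case the remaining array of that group is assumed to vary as the other groups do. Plots used matplotlib 3.10.9.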

Additional observations from a re-analysis of the deposited data

Results flagged for a closer look

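A test of the difference itself, the interaction term of siRNA and line in the limma model, called 56 of the 114 named genes. The threshold was an adjusted p under 0.05, and over all genes 3.34% were called. Named genes were chosen largely by their SNB19 difference, which is part of this term, and some by the term itself. Their number and their signs therefore follow in part from that choice. Values are the siRNA2 minus siRNA1 difference in SNB19 less that in SF539, on the log2 scale, and each rests in part on the SF539 siRNA2 pair, whose replicates differ most.

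Among hypoxia-induced, glycolysis and related genes the values were all negative: NDRG1 -2.57, SLC2A3 -2.54, DDIT4 -2.31, STC1 -1.90, ADM -1.90, LOX -1.87, HK2 -1.85, AK4 -1.82, VEGFA -1.67, ENO2 -1.57 and BNIP3 -1.44. Redox and metal genes went both ways, with AKR1B10 -3.25, CP -2.14 and AKR1C1 -0.93 but HMOX1 1.68 and MT1E 1.09. Genes of antigen presentation and cytokines were positive: IL11 2.70, CXCL8 2.31, CXCL2 2.30, CTSS 1.53, PSMB9 1.43, TAP2 1.08 and PSMB8 0.89.

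The other positive values were PLN 2.75, MMP1 2.62, RPE65 2.13, LGR5 2.10, LPL 2.08, HOPX 1.99, CCND1 1.79, SH3BGR 1.44, LRRN3 1.36, EVI2A 1.27, CNN1 0.94, ITGB2 0.90, CRYAB 0.72 and GAP43 0.64. The other negative values were CEMIP -4.57, TIMP3 -3.01, CD180 -2.98, DAPK1 -2.85, TRIL -2.09, CEBPD -2.05, TCN1 -2.03, DOK5 -1.90, CHI3L2 -1.78, AZGP1 -1.73, CD46 -1.72, RASGRP1 -1.62, SCRG1 -1.37, SPRY1 -1.14, KDR -1.05, MYLK -0.90, ITGA4 -0.73, CEBPG -0.64 and JUNB -0.59. CCND1, MMP1 and CEMIP were not called in SNB19 itself in the main fit.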

How the results depend on the processing

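The 518 calls in SNB19 numbered 1122 with the 6 SNB19 arrays alone, 906 with the 4 siRNA arrays alone, 1427 with array weights and 35 with a minimum fold of 1.5. Leaving out single arrays gave 134 to 1082. Median centring gave 480, of which 57.7% were higher against 50.8% in the main result. The 232 SF539 calls numbered 0 with the 6 or the 4 SF539 arrays alone (1194 and 943 at an unadjusted p under 0.05), 356 without the dimmest 40%, 375 with a trended prior, 24 with array weights and 1 with the minimum fold, and 3 to 2303 when single arrays were left out. The 285 genes for the difference numbered 126 with the 8 siRNA arrays, 429 with a trended prior, 30 with the minimum fold and 77 to 2203 without single arrays. The labels do not say whether replicate numbers pair the samples. Deviations of same-numbered SNB19 siRNA1 and siRNA2 arrays had a correlation of 0.01. Over all pairs of groups it ran from -0.18 (SF539 scramble and siRNA1) to 0.11 (SNB19 scramble and siRNA1). A replicate block gave 424 calls, 409 of them shared.

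Interferon genes called higher numbered 14 with array weights, 0 with the minimum fold and 4 to 12 without single arrays. Class I genes numbered 4 with a replicate block, quantile normalization or the mean of probe sets, 0 with the minimum fold and 2 to 9 without single arrays. Hypoxia genes called lower numbered 4 with the minimum fold and 8 to 18 without single arrays. NRF2 targets called higher numbered 4 without the dimmest 40% or with array weights, 1 with the minimum fold and 1 to 4 without single arrays, and those called lower 3 with the minimum fold and 3 to 9 without single arrays. Over all lists 106 members were called, 224 with the 6 SNB19 arrays, 172 with the 4, 250 with array weights, 13 with the minimum fold and 35 to 217 without single arrays.

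For the 114 named genes, 2008 of 2484 alternative values kept direction and call, 455 lost the call, 20 gained it and 1 reversed. CCND1, CCNE2, CEMIP and PINK1, not called in the main fit, were among the gains, each when a single array was left out. The reversal was MMP1, which ran from -0.24 to 0.0090 when single arrays were left out, the positive value without SNB19 siRNA1 replicate 2. Of 72 values of other probe sets 37 kept direction and call, 33 lost the call and 2 reversed, ACTA2 at -0.042 and GAP43 at -0.030. With the minimum fold, the loss of calls follows from its construction. Fits of fewer arrays gave both fewer and more calls over all genes. The cause of these and the other changes was not tested. Genes at or below the lower quartile are limited by their signal over background.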
